A study of Mus musculus with 6 samples.

Results

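The 10 genes Cxcl12, Cxcr4, Ackr3, Vegfa, Vegfb, Vegfc, Angpt1, Angpt2, Nrp1 and Nrp2 encode ligands, receptors and coreceptors that guide blood and lymph vessels. They were taken by gene name from 6 tables of transcript levels in mouse kidney, and all 10 were found among 13696 protein-coding genes. Of the 6 libraries, 3 were labelled WT and 3 fat-1 knockin (fat-1 here), all from mice 24 months of age. The fat-1 gene comes from a nematode, and its enzyme makes omega-3 fatty acids out of omega-6 ones, which mammals cannot do. Strain, sex, the site and promoter of the insertion, and whether kidneys came from separate animals are not in the labels used here. P-values therefore measure only the spread between these samples. The comparison asks what the inserted gene changes in the old kidney, and the series links omega-3 fatty acids to organ aging and energy metabolism.

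Vascular endothelial growth factors (VEGF) are secreted ligands that act on receptor tyrosine kinases of endothelial cells. In the kidney, podocytes and tubule cells make VEGF-A, which keeps the fenestrated capillaries of glomeruli and tubules in place. Angiopoietins act on the receptor Tie2, encoded by Tek, and set how quiet or responsive a vessel is. Neuropilins, encoded by Nrp1 and Nrp2, bind both VEGF and class 3 semaphorins and work together with other receptors. CXCL12 is a chemokine that signals through CXCR4, and ACKR3 is a second receptor that takes CXCL12 up and removes it.

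The ligand genes Cxcl12 and Vegfa were listed with 3 transcripts each, and these differ in the part of the protein that sets how it binds matrix and coreceptors. The sequences are from GENCODE M21 transcripts. The listed coordinates on mm10 were identical for all 26113 transcripts that this annotation and the tables share. The 3 Cxcl12 coding regions (chr6:117168535-117181367, plus strand) share all but their last bases. Below, 30 shared bases are in lower case and the bases each transcript adds, stop codon included, are in capitals. Cxcl12-202, with 89 codons, is the alpha form, whose last exon runs on where the other forms splice. Cxcl12-203, with 93 codons, is the beta form and uses the exon at chr6:117178583-117181366. Cxcl12-201, with 119 codons, is the gamma form, whose long basic tail is known for strong binding to heparan sulfate.
Cxcl12-202: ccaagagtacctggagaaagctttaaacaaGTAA
Cxcl12-203: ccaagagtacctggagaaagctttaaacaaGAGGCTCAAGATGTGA
Cxcl12-201: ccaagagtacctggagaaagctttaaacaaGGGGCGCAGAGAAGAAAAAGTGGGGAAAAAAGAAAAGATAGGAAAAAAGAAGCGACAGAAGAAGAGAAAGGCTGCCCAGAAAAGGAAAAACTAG

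The 3 Vegfa transcripts (chr17:46016993-46032369, minus strand) differ in cassette exons near the end of the coding region. The capitals mark the exons that Vegfa-201 skips, between 30 bases of the exon before and the last coding bases with the stop codon. Vegfa-201 has 146 codons and encodes the diffusible form known as VEGF120. Vegfa-202 adds an exon of 132 bases (chr17:46020991-46021122), the part known to let VEGF164 bind heparin and neuropilin-1. Vegfa-207 adds a further exon of 72 bases (chr17:46022277-46022348) before it and encodes the matrix-bound form VEGF188. Vegfa-202 and Vegfa-207 are also annotated with a coding region that begins further upstream, so they differ from Vegfa-201 at both ends. Their first exon has 1079 bases, against 525 in Vegfa-201. The last exon has 337 bases in Vegfa-207, against 1887 in Vegfa-201 and Vegfa-202.
Vegfa-201: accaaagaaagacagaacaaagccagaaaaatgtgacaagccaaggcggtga
Vegfa-202: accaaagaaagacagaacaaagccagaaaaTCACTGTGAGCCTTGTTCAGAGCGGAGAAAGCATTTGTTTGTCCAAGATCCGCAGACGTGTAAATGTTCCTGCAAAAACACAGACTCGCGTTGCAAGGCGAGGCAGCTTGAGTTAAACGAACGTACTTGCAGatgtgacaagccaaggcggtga
Vegfa-207: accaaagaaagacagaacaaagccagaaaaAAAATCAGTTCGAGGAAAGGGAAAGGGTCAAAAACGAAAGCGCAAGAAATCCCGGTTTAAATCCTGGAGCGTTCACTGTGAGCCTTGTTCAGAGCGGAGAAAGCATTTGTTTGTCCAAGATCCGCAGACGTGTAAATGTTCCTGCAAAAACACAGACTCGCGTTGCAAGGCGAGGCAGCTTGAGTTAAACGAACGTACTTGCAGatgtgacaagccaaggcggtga

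Levels are given in FPKM, which scales the fragments of a transcript by its length and by the fragments of the library, summed over the listed transcripts of a gene. Summed FPKM per library lay between 387488 and 431081, and the read depth behind the values is unknown. Proximal tubule markers such as Slc34a1 and Slc27a2, which are abundant in kidney cortex, summed to 2737 FPKM or more in every library. Replicate 1 of WT and replicate 3 of fat-1 stood apart in immune markers. In these 2 libraries 9 lymphocyte markers summed to 27.8 and 21.2 FPKM, against 2.23 to 4.84 FPKM in the other 4. Macrophage markers summed to 1949 FPKM in WT replicate 1, against 256 to 530 FPKM elsewhere.

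Differences are fat-1 minus WT in log2(FPKM + 1). They were tested with limma over the 11698 genes that reached 1 FPKM in 3 or more libraries. All 10 genes passed that filter. A gene was called at a Benjamini-Hochberg adjusted p under 0.05. Over all tested genes 0.12% were called higher and 0.0598% lower, and 9.97% had an unadjusted p under 0.05. Among the 10 genes, 1 was called higher (Cxcl12) and 0 lower, and 3 had an unadjusted p under 0.05 (Cxcl12, Nrp1 and Ackr3). In 2 of the 10 genes, Cxcl12 and Nrp1, the groups did not overlap, and both were higher in fat-1. Of all tested genes 15.2% did not overlap, 8.33% higher and 6.86% lower. The median difference was 0.08 over the 10 genes and 0.01 over all tested genes. Positive differences were found in 5 of the 10 genes and in 5984 of all 11698 tested genes.

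**Figure D1:**
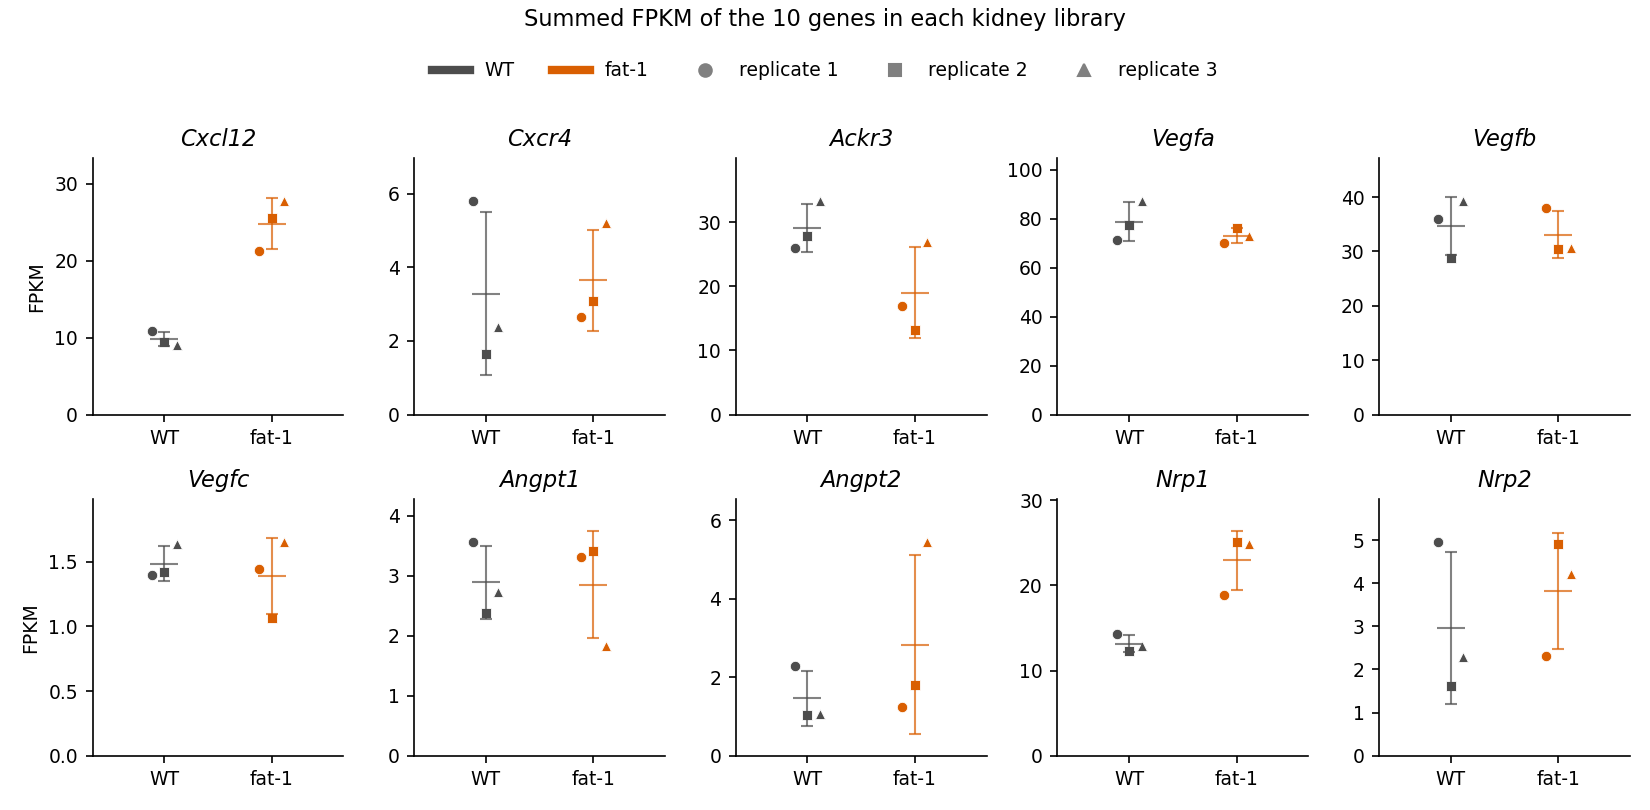
FPKM (vertical axes, from 0) of the 10 genes in the WT (grey) and fat-1 (orange) libraries. Symbols are replicates, and horizontal bars with whiskers are means and SD of 3 libraries. Cxcl12 and Nrp1 are the panels in which all fat-1 points lie above all WT points.

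Cxcl12, the chemokine ligand, was the only one of the 10 genes that was called. It measured 10.9, 9.50 and 9.09 FPKM in WT replicates 1 to 3 and 21.2, 25.5 and 27.8 FPKM in fat-1 replicates 1 to 3. The groups did not overlap: the lowest fat-1 library was above the highest WT library. Mean levels of 9.83 ± 0.951 for WT and 24.8 ± 3.33 FPKM for fat-1 (SD, n = 3 each) gave a 2.53-fold ratio. On the log2 scale it rose by 1.25 ± 0.14 (SE; 95% interval 0.92 to 1.58; adjusted p = 0.0473 in limma). In whole kidney, more cells that express a gene and more of its RNA per cell cannot be told apart. The call lay close to the threshold. Leaving out WT replicate 2 or 3 or any single fat-1 library kept the difference between 1.17 and 1.35 but raised the adjusted p to between 0.0920 and 0.197. Without WT replicate 1 the call was kept. Leaving out WT replicate 1 together with fat-1 replicate 3 gave 1.24 (adjusted p = 0.0962).

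Cxcr4, the signalling receptor for CXCL12 (chr1:128588199-128592290, minus strand), followed single libraries more than the groups. It stood at 5.80, 1.65 and 2.38 FPKM in the WT libraries and 2.65, 3.08 and 5.20 FPKM in the fat-1 libraries. The 2 highest values were those of WT replicate 1 and fat-1 replicate 3, the libraries with the most lymphocyte marker RNA, and the groups overlapped. The log2 difference was 0.20 ± 0.39 (SE; 95% interval -0.72 to 1.12; adjusted p = 0.951 in limma). Without both libraries it was 0.37 (adjusted p = 0.544). Cxcr4 is known to be expressed by lymphocytes. Whether these cells account for the 2 high values was not tested.

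Ackr3, the scavenging receptor for CXCL12 (chr1:90203980-90216751, plus strand), had lower values in 2 of the 3 fat-1 libraries than in any WT library. It stood at 26.0, 27.8 and 33.3 FPKM in the WT libraries and 17.0, 13.1 and 27.0 FPKM in the fat-1 libraries. Fat-1 replicate 3 lay within the WT range, so the groups overlapped. Its log2 difference was -0.64 ± 0.25 (SE; 95% interval -1.24 to -0.04), with an unadjusted p of 0.0409 and an adjusted p of 0.469 in limma. Without fat-1 replicate 2 the difference was -0.42 (adjusted p = 0.782), and with WT replicate 1 and fat-1 replicate 3 both left out it was -0.98 (adjusted p = 0.158). Nearly all of the signal came from Ackr3-201, the transcript with the full coding region of 362 codons, whose highest fat-1 value (25.5 FPKM) was just below its lowest WT value (25.7 FPKM). The order of ligand and scavenger differed between the groups. The ratio of Cxcl12 to Ackr3 FPKM was 0.419, 0.341 and 0.273 in WT and 1.25, 1.95 and 1.03 in fat-1. Ackr3 exceeded Cxcl12 in every WT library, and Cxcl12 exceeded Ackr3 in every fat-1 library. This ratio was computed after the values of both genes were known and is a description.

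The 250 bases before the annotated start of Cxcl12, the called gene, and of Nrp1, the other gene with separated groups, are shown for their motifs. They are from the RefSeq promoter table (GRCm38.p6), which held 8 of the 10 genes, and both are on the plus strand. Searches covered both strands. Capitals mark GGGCGG, the GC box bound by Sp1 family factors, and ACGTG or GCGTG, the core of hypoxia response elements. Neighbouring GC boxes may overlap.
Cxcl12 (chr6:117168285-117168534): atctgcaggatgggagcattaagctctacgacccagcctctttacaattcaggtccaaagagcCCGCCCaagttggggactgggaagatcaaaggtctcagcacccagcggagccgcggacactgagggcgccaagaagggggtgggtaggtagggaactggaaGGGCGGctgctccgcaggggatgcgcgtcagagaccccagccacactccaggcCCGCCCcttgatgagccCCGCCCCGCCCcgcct
Nrp1 (chr8:128358823-128359072): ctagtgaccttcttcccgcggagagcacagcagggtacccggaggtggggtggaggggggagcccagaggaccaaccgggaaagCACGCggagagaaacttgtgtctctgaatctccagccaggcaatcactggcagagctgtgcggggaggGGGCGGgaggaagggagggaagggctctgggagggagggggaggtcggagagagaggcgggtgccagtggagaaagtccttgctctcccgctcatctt

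The Cxcl12 stretch held 5 GC boxes and 0 hypoxia cores, and the Nrp1 stretch held 1 GC box and 1 hypoxia core. Among all 32851 promoters of the table, 32.7% held a GC box and 38.6% a hypoxia core in the same stretch. GC boxes were found in all 9 promoters listed for these 8 genes and hypoxia cores in 6 of the 9. For Vegfa, the stretch with hypoxia cores (chr17:46025164-46025413) lies inside the gene. The stretch upstream of Vegfa (chr17:46032378-46032627) held 0. A match of letters is a description of the sequence and not a bound site.

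Vegfa, the main angiogenic ligand of the kidney, was the most abundant of the 10 genes and did not differ beyond its spread. It stood at 71.5, 77.5 and 87.3 FPKM in the WT libraries and 70.1, 76.3 and 73.0 FPKM in the fat-1 libraries. The groups overlapped. The log2 difference was -0.10 ± 0.12 (SE; adjusted p = 0.883 in limma), with a 95% interval from -0.38 to 0.18. On this scale the interval does not reach the change of 1.25 measured for Cxcl12.

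Vegfb, a ligand of VEGF receptor 1 known for its role in fatty acid uptake by endothelium (chr19:6982473-6987651, minus strand), was second in level. It stood at 36.0, 28.9 and 39.3 FPKM in the WT libraries and 38.1, 30.5 and 30.7 FPKM in the fat-1 libraries, and the groups overlapped. Its log2 difference was -0.06 (95% interval -0.43 to 0.31). Vegfc, the main ligand for lymphatic vessels (chr8:54077606-54187096, plus strand), had the lowest mean over the 6 libraries. It stood at 1.39, 1.42 and 1.64 FPKM in the WT libraries and 1.45, 1.07 and 1.65 FPKM in the fat-1 libraries. Its groups overlapped too, and the log2 difference was -0.06 (95% interval -0.48 to 0.35). Neither gene passed the test (adjusted p = 0.965 and 0.972 in limma).

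Angpt1, which activates Tie2 and stabilises vessels (chr15:42424723-42676977, minus strand), stood at 3.56, 2.37 and 2.73 FPKM in the WT libraries and 3.31, 3.41 and 1.82 FPKM in the fat-1 libraries. The lowest and the second-highest values both came from fat-1 libraries. The log2 difference was -0.03 (95% interval -0.59 to 0.52; adjusted p = 0.992 in limma). Angpt2, which in most settings opposes Angpt1 at Tie2 (chr8:18690263-18741562, minus strand), stood at 2.28, 1.03 and 1.07 FPKM in the WT libraries and 1.25, 1.79 and 5.44 FPKM in the fat-1 libraries. Fat-1 replicate 3 was far above the other 5 libraries, and the remaining fat-1 values lay within the WT range. The log2 difference was 0.52 (95% interval -0.49 to 1.53; adjusted p = 0.818), and 0.0642 without fat-1 replicate 3. The ratio of Angpt2 to Angpt1 FPKM was 2.99 in that library and between 0.378 and 0.640 in the other 5.

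**Figure D2:**
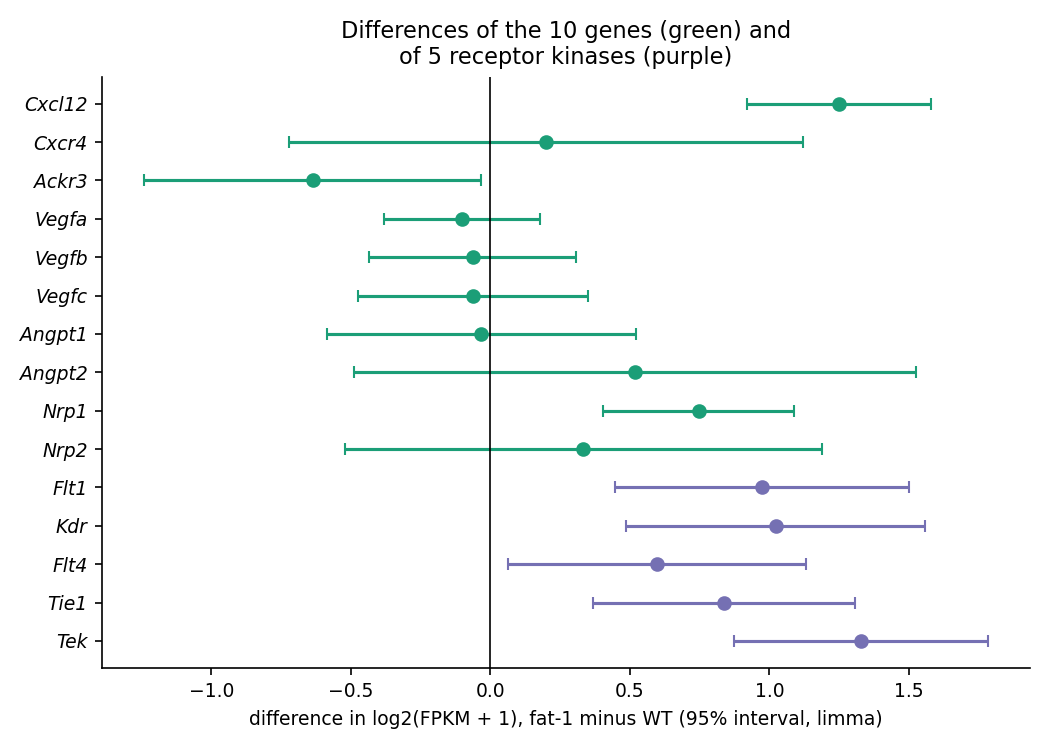
Difference in log2(FPKM + 1), fat-1 minus WT (horizontal axis), with 95% intervals from limma, for the 10 genes (green) and for the 5 receptor kinases of VEGF and angiopoietins (purple). The interval of Cxcl12 runs from 0.92 to 1.58, those of Vegfa, Vegfb, Vegfc and Angpt1 span 0, and all 5 receptors lie above 0.

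Nrp1, the coreceptor of endothelial cells for VEGF164 and semaphorins (chr8:128359284-128503363, plus strand), had separated groups but was not called. It stood at 14.3, 12.4 and 12.9 FPKM in the WT libraries and 18.9, 25.1 and 24.8 FPKM in the fat-1 libraries. Every fat-1 library lay above every WT library, as noted above. The means were 13.2 ± 0.973 and 22.9 ± 3.52 FPKM (SD, n = 3 each), a 1.74-fold ratio. The log2 difference was 0.75 ± 0.14 (SE; 95% interval 0.41 to 1.09), with an unadjusted p of 0.00136 and an adjusted p of 0.118 in limma. It lay between 0.68 and 0.88 in all alternatives run.

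Nrp2, the coreceptor linked to lymphatic endothelium and VEGF-C (chr1:62703285-62818695, plus strand), was lower in level and more variable. It stood at 4.96, 1.63 and 2.28 FPKM in the WT libraries and 2.32, 4.91 and 4.22 FPKM in the fat-1 libraries, and the groups overlapped. Its log2 difference was 0.33 (95% interval -0.52 to 1.19; adjusted p = 0.877 in limma). With WT replicate 1 and fat-1 replicate 3 both left out it was 0.59 (adjusted p = 0.538), without WT replicate 2 it was 0.0827 and without fat-1 replicate 2 it was 0.165. The 5 listed Nrp2 transcripts were each at or near 0 FPKM in some libraries, apart from Nrp2-205, and only Nrp2-202 passed the transcript filter.

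**Figure D3:**
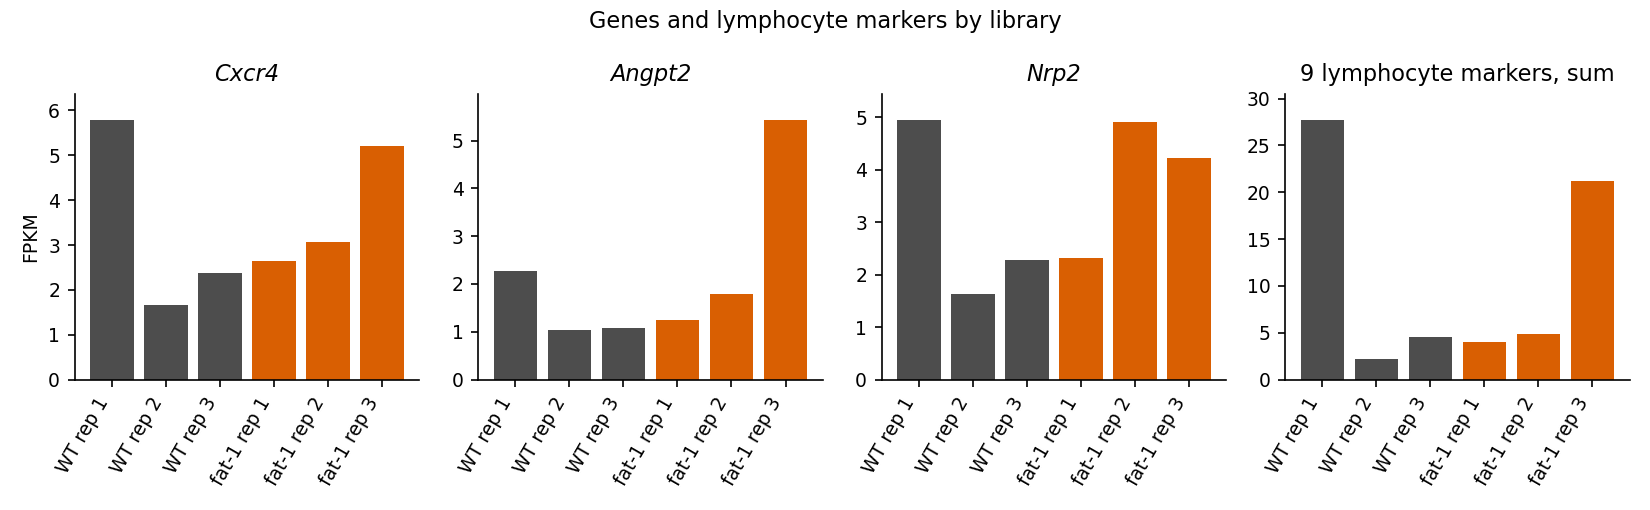
FPKM (vertical axes, from 0) of Cxcr4, Angpt2 and Nrp2 and the sum of 9 lymphocyte markers in each library, WT grey and fat-1 orange. WT replicate 1 and fat-1 replicate 3 hold the highest lymphocyte sums (27.8 and 21.2 FPKM), the 2 highest values of Cxcr4 and the 2 highest of Angpt2.

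Ordered by level, WT kidneys held Vegfa (78.8 ± 7.94 FPKM), Vegfb (34.7 ± 5.34), Ackr3 (29.0 ± 3.78), Nrp1 (13.2 ± 0.973) and Cxcl12 (9.83 ± 0.951), with the other 5 genes at means of 3.28 FPKM or less (SD, n = 3). The WT ranges of Vegfb and Ackr3 overlapped, and those of Nrp1 and Cxcl12 did not. Among the low genes, Cxcr4, Nrp2 and Angpt1 did not differ beyond their spread, nor did Angpt2 and Vegfc. In fat-1 kidneys Cxcl12, at 24.8 FPKM, came right after Vegfa (73.1 ± 3.10) and Vegfb (33.1 ± 4.30). Its values there overlapped those of Nrp1 (22.9 ± 3.52) and Ackr3 (19.0 ± 7.15). The spread within a group was widest for Angpt2 in fat-1, with an SD of 80.6% of the mean, and narrowest for Vegfa in fat-1, with 4.23%.

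Among the single Cxcl12 transcripts none was called. Cxcl12-203, the beta form, stood at 6.07, 6.05 and 7.61 FPKM in the WT libraries and 15.4, 21.1 and 18.3 FPKM in the fat-1 libraries. The groups did not overlap, as for 14.0% of the 17119 tested transcripts. Its log2 difference was 1.34 ± 0.17 (SE; adjusted p = 0.0990 in limma over all transcripts, of which 0.0584% were called). Cxcl12-201, the gamma form, stood at 4.65, 2.67 and 1.42 FPKM in the WT libraries and 3.82, 4.08 and 8.69 FPKM in the fat-1 libraries, and its groups overlapped (0.75 ± 0.42; adjusted p = 0.755). Cxcl12-202, the alpha form, stayed at 2.00 FPKM or less in every library and was not tested. As a share of Cxcl12 FPKM, the beta form took 67.7% ± 14.4 in WT and 73.8% ± 8.52 in fat-1 (SD, n = 3; exact two-sided permutation p = 0.6). The shares of all 3 forms overlapped between the groups. The gamma share ranged from 15.6% to 42.6% within WT alone, and the beta share differed by 0.0525 points without WT replicate 1. How reliably reads were split between these overlapping transcripts could not be judged.

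For Vegfa the sum and Vegfa-201 overlapped between the groups, while Vegfa-202 and Vegfa-207 did not. Of the 17119 tested transcripts 14.0% did not overlap, and no Vegfa transcript was called. Vegfa-202, the VEGF164 form shown above with its 132-base exon, stood at 26.1, 23.6 and 28.7 FPKM in the WT libraries and 14.6, 20.4 and 16.7 FPKM in the fat-1 libraries. Every fat-1 library lay below every WT library. Its log2 difference was -0.58 ± 0.16 (SE; 95% interval -0.96 to -0.20), with an unadjusted p of 0.00967 and an adjusted p of 0.375 in limma. Vegfa-201, the VEGF120 form, stood at 43.1, 48.6 and 53.7 FPKM in the WT libraries and 48.9, 49.0 and 50.8 FPKM in the fat-1 libraries, with overlapping groups (0.04 ± 0.12; adjusted p = 0.974). Vegfa-207, the VEGF188 form with both cassette exons, stood at 2.31, 5.32 and 4.92 FPKM in the WT libraries and 6.55, 6.85 and 5.59 FPKM in the fat-1 libraries. It was higher in every fat-1 library (0.55 ± 0.29; adjusted p = 0.729), although WT replicate 1 was far below the other WT libraries, and without it the difference was 0.256.

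Shares within Vegfa moved by several points. Vegfa-202 took 36.5%, 30.5% and 32.9% of Vegfa FPKM in WT and 20.9%, 26.8% and 22.8% in fat-1. Its mean share was 33.3% ± 3.02 in WT and 23.5% ± 3.00 in fat-1 (SD, n = 3 each), a difference of -9.78 percentage points. The share of Vegfa-201 was 61.5% ± 1.18 in WT and 67.8% ± 3.12 in fat-1, and that of Vegfa-207 was 5.24% ± 1.85 and 8.66% ± 0.893. None of these 3 shares overlapped between the groups, an arrangement shown by 10.9% of 11911 transcript shares in tested genes with several transcripts. The exact two-sided permutation p was 0.1 for each, the smallest that 3 against 3 libraries allow, and 0.2 after Benjamini-Hochberg adjustment over the 6 shares of both genes. The 3 shares sum to 100% and are not independent. They also rest on how the authors' software divided reads between transcripts that overlap over most of their length. The transcripts differ in the length of their first and last exons as well, so the shares do not measure the cassette exons alone.

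**Figure D4:**
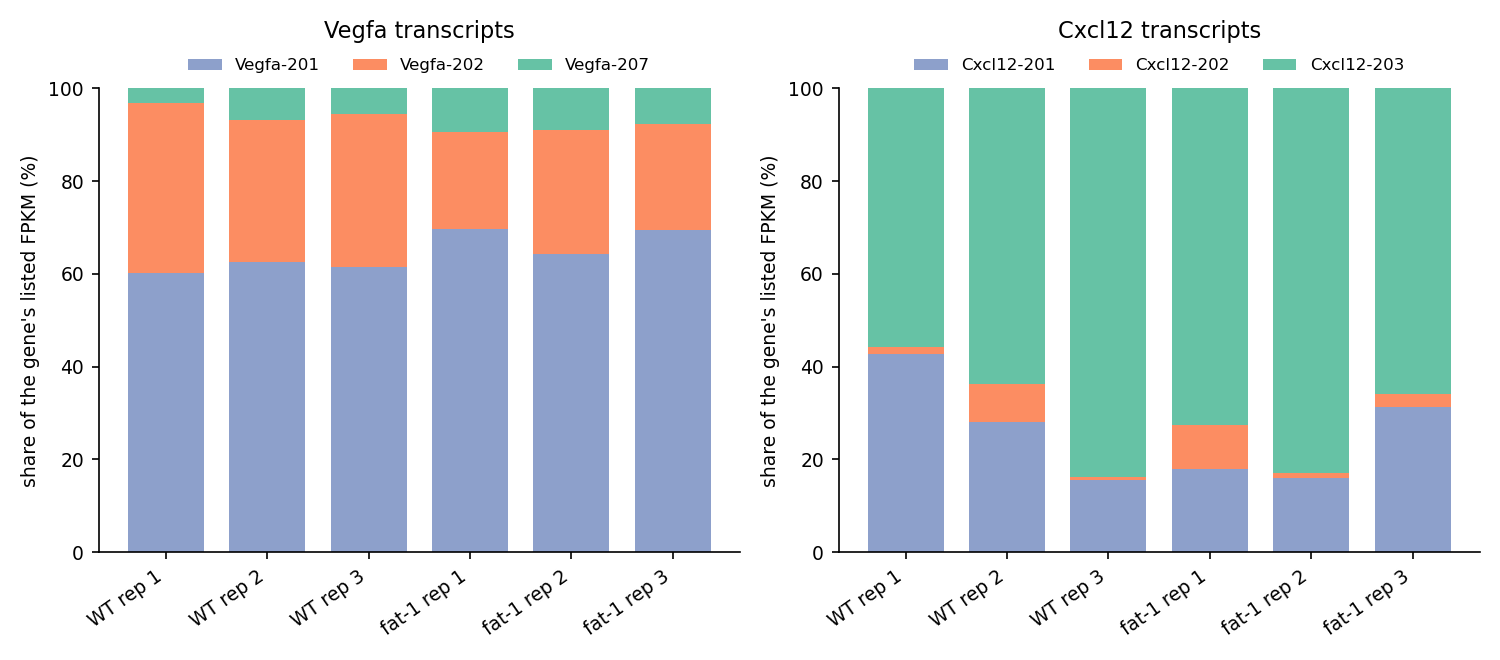
Share of the listed FPKM of Vegfa (left) and Cxcl12 (right) taken by each transcript (vertical axis, percent) in the 6 libraries. Vegfa-202 takes 30.5% to 36.5% in WT and 20.9% to 26.8% in fat-1, while the Cxcl12 shares overlap between the groups.

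The receptor kinases of these ligands were all measured, and none was called. All 5 (Flt1, Kdr, Flt4, Tek and Tie1) had positive differences, separated groups and an unadjusted p under 0.05, with a median difference of 0.97 against 0.01 over all genes. Of all 11698 tested genes, 5984 had positive differences, 8.33% had groups separated on the higher side and 9.97% had an unadjusted p under 0.05. The receptors were listed with the higher endothelial level in fat-1 already known, so their counts are a description. Tek, the Tie2 receptor, stood at 4.94, 4.14 and 3.91 FPKM in the WT libraries and 9.64, 12.5 and 15.5 FPKM in the fat-1 libraries, and it came nearest to the threshold (1.33 ± 0.19; adjusted p = 0.0655 in limma). It was called with quantile normalization (adjusted p = 0.0488) and when the filter was raised to 5 FPKM (adjusted p = 0.0445). In the other 17 alternatives it was not called, with adjusted p up to 0.256 without WT replicate 3. Kdr, the main signalling receptor for VEGF-A, stood at 7.59, 5.99 and 8.29 FPKM in the WT libraries and 12.8, 22.0 and 13.8 FPKM in the fat-1 libraries. Flt1, VEGF receptor 1, had means of 7.56 ± 0.995 and 16.1 ± 4.41 FPKM (SD, n = 3). Tie1, a receptor that modulates Tie2, had means of 4.80 ± 0.496 and 9.54 ± 2.53 FPKM, and its difference of 0.84 dropped to 0.38 with its highest transcript in place of the sum. Flt4, the lymphatic VEGF-C receptor, had means of 1.15 ± 0.0811 and 2.32 ± 0.829 FPKM. Lymphatic markers had a median difference of -0.24 over 4 tested entries, with 0 called: Pdpn differed by 0.06, Prox1 by 0.08 and the 2 entries of Ccl21a by -0.62 and -0.55. With WT replicate 1 and fat-1 replicate 3 both omitted, the 5 receptors differed by 0.89 (Flt1), 1.14 (Kdr), 0.46 (Flt4), 1.25 (Tek) and 0.66 (Tie1). The ratio of Vegfa to Kdr FPKM was 9.43, 12.9 and 10.5 in WT and 5.48, 3.47 and 5.30 in fat-1. The groups did not overlap in this ratio, which was computed after both genes were seen. Kdr alone was already separated and Vegfa was not, so the ratio adds nothing on Vegfa.

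Endothelial markers moved with these values. All 12 markers had positive differences, 9 had separated groups and 1, Plvap of the fenestral diaphragm, was called: it rose from 31.4 ± 3.23 to 76.5 ± 12.6 FPKM (SD, n = 3; adjusted p = 0.0496 in limma). That call was lost whichever library was left out, with differences of 1.12 to 1.32. Their summed level was 107 to 129 FPKM in WT and 192 to 261 FPKM in fat-1. This list was drawn up with the higher endothelial level in fat-1 already known. Of all 11698 tested genes, 5984 had positive differences, 8.33% had groups separated on the higher side and 0.12% were called higher. The mean log2(FPKM + 1) of the 12 markers was 3.07 ± 0.0766 in WT and 3.78 ± 0.268 in fat-1 (SD, n = 3), a difference of 0.71.

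The 12 differences ran from 0.09 (Cldn5) and 0.12 (Icam2) to 1.25 (Plvap) and 1.38 (Robo4), so the mean covers unequal changes.

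Set against that mean in each library, Nrp1 and Cxcl12 gave different values. Nrp1 lay 0.85, 0.76 and 0.67 above the endothelial mean in WT and 0.82, 0.89 and 0.66 above it in fat-1. The groups overlapped, and the relative difference was 0.03, against 0.75 before. Cxcl12 lay 0.49, 0.41 and 0.20 above the endothelial mean in WT and 0.98, 0.91 and 0.82 above it in fat-1. Every fat-1 library remained higher, with a relative difference of 0.54, and 38 of the 11698 tested genes (0.325%) were separated in this direction on the relative scale. The marker mean was itself 0.71 higher in fat-1, and subtracting it lowers most genes. That share therefore does not show how unusual Cxcl12 is. The exact two-sided permutation p for Cxcl12 was 0.1, the smallest possible here, and 0.167 after Benjamini-Hochberg adjustment over the 10 genes. Single endothelial genes exceeded the marker mean as far or further: before this step Plvap differed by 1.25 and Tek by 1.33, against 1.25 for Cxcl12. Relative to the markers, Vegfa, Vegfb, Vegfc, Angpt1 and Ackr3 were lower in every fat-1 library, as were 68.8% of all tested genes (69.1% were separated in either direction), so these 5 stand with the majority. Ackr3 had the largest relative difference of the 10 genes, at -1.35. With WT replicate 1 and fat-1 replicate 3 omitted the relative difference was 0.64 for Cxcl12, 0.14 for Nrp1, -0.30 for Angpt1 and -1.58 for Ackr3.

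**Figure D5:**
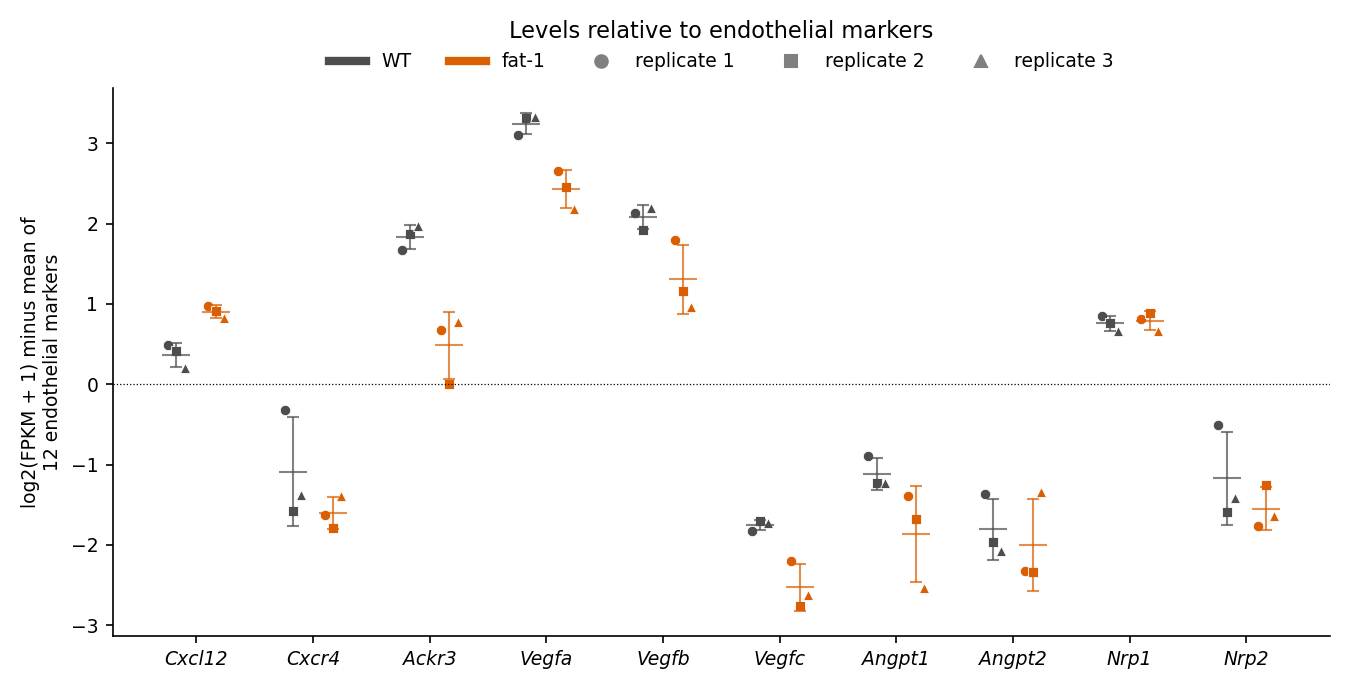
Level of each of the 10 genes as log2(FPKM + 1) minus the mean of 12 endothelial markers in the same library (vertical axis), WT grey and fat-1 orange, with mean and SD of 3 libraries. Nrp1 sits at the same height in both groups, Cxcl12 is higher in fat-1 by 0.54, and Vegfa, Vegfb, Vegfc, Angpt1 and Ackr3 are lower.

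Markers of other cell types moved as well. Podocyte markers, from a cell that secretes VEGF-A, summed to 85.9 to 100.2 FPKM in WT and 117 to 138 FPKM in fat-1, with 6 of 8 tested markers positive, a median difference of 0.37 and 0 called. Podxl, a surface sialoprotein of podocytes and endothelium, measured 31.4 ± 2.90 and 50.6 ± 4.97 FPKM (SD, n = 3). Fibroblast and pericyte markers, from cells known to make CXCL12 and angiopoietin-1, summed to 44.3 to 78.9 FPKM in WT and 52.1 to 68.3 FPKM in fat-1. Their median difference was 0.08 over members that went both ways, with 0 called. The abundant Rgs5 of pericytes measured 13.7 ± 6.46 and 18.4 ± 7.60 FPKM, the collagen gene Col1a2 13.6 ± 4.01 and 9.64 ± 1.95 FPKM. Col3a1 (-0.83) and Col1a1 (-0.73) had separated groups on the lower side and Pdgfrb (0.40) on the higher side, and were chosen after their values were seen. Smooth muscle markers summed to 66.1 to 98.4 and 68.1 to 103 FPKM (median difference 0.05). The part of podocyte, stromal and muscle RNA in these results was not tested. Along the nephron, median differences were 0.04 for proximal tubule, -0.71 for its S3 segment and -0.05 for thick ascending limb markers. They were -0.93 for distal convoluted tubule, -0.28 for principal cell and -0.58 for intercalated cell markers, with 0 called in each list. Groups were separated lower in 4 of 6 intercalated cell, 2 of 6 principal cell and 1 of 6 distal convoluted tubule markers. Separation on the higher side was found in 2 of 9 proximal tubule markers and 1 principal cell marker. Over all tested genes 6.86% were separated on the lower side and 8.33% on the higher side. Intercalated cell markers summed to 115 to 118 FPKM in WT and 78.5 to 89.4 FPKM in fat-1. Distal convoluted tubule sums were 357 FPKM or more in WT and 310 FPKM or less in fat-1. Sums of the other nephron lists overlapped. Neutrophil and erythrocyte markers had median differences of -2.13 and -1.73, with 0 called in each list. Erythrocyte markers summed to 538, 24.6 and 8.18 FPKM in fat-1 replicates 1 to 3 and to 133 to 239 FPKM in WT. The part of blood cell RNA in these results was not tested.

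Further genes of the same pathways were counted by lists that were drawn up with earlier results of these data known. Among 7 tested other ligands of these receptors and of neuropilins, 6 had positive differences and 0 were called (median 0.29). Sema3g, an endothelial semaphorin that binds neuropilins, averaged 12.6 ± 2.42 FPKM over WT and 22.8 ± 4.97 FPKM over fat-1 libraries (adjusted p = 0.217 in limma), and Sema3f, a ligand of neuropilin-2, 3.62 ± 0.632 and 6.16 ± 1.78 FPKM (adjusted p = 0.399). Plexins and their adaptor Gipc1, which carry the semaphorin signal, had a median of 0.13 over 6 genes, with 0 called, and Plxnd1 differed by 0.32 (adjusted p = 0.756). Among 11 tested G proteins, arrestins, kinases and proteases of the CXCL12 axis, 0 were called and the median was 0.06. Dpp4, a protease that inactivates CXCL12, measured 12.3 ± 1.60 and 16.4 ± 0.826 FPKM, with separated groups (adjusted p = 0.363).

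Endothelial genes of the VEGF and Notch response had a median of 0.50 over 12 tested genes, of which 10 were positive, 6 had separated groups and 0 were called. All 6 were separated on the higher side, as were 8.33% of all tested genes, and 5984 of those 11698 genes had positive differences. These endothelial genes too were listed with the higher endothelial level in fat-1 already known. Esm1, an endothelial tip cell gene known to be induced by VEGF, averaged 9.98 ± 3.04 FPKM over WT and 28.2 ± 8.94 FPKM over fat-1 libraries (SD, n = 3; adjusted p = 0.131 in limma). Sox18, an endothelial transcription factor, measured 4.47 ± 0.847 and 7.43 ± 0.154 FPKM (adjusted p = 0.205), and Nos3, endothelial nitric oxide synthase, 1.26 ± 0.214 and 2.60 ± 0.768 FPKM (adjusted p = 0.321). Inhibitors of angiogenesis had a median of 0.07 over 11 genes with 0 called. Spry1, which restrains growth factor signalling, had means of 6.32 ± 1.88 and 9.50 ± 0.710 FPKM (adjusted p = 0.431).

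Vegfa and Cxcl12 are both known targets of hypoxia-inducible factors, so oxygen-sensing genes were counted as well. Of 14 tested, 9 were positive and 1 was called, with a median of 0.10. Groups were separated on the higher side in 3 (Egln3, Epas1 and Bnip3) and on the lower side in 2 (Egln1 and Vhl). Over all tested genes these shares were 8.33% and 6.86%. An unadjusted p under 0.05 was found in 5 of the 14 and in 9.97% of all tested genes. Egln3, a prolyl hydroxylase that is itself a hypoxia target, rose from 5.99 ± 1.01 to 15.5 ± 0.509 FPKM (SD, n = 3; adjusted p = 0.0473 in limma). This call too was lost whichever library was left out, with differences of 1.17 to 1.36. Epas1, which encodes HIF-2 alpha and is strong in endothelium, measured 21.6 ± 0.825 and 42.8 ± 9.53 FPKM (adjusted p = 0.111), and the mitophagy gene Bnip3 measured 88.6 ± 0.593 and 132 ± 11.1 FPKM (adjusted p = 0.123). Egln1, the main oxygen sensor, measured 23.1 ± 2.17 and 18.2 ± 1.43 FPKM (adjusted p = 0.429). Further classical targets, named here after their values were seen, were Pdk1 (0.64), Adm (0.27), Ldha (-0.04), Slc2a1 (-0.23) and Car9 (-0.60). These went both ways with overlapping groups, unlike the targets Egln3 and Bnip3.

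The genes whose pattern over the 6 libraries was closest to Cxcl12, by the root mean square difference of centred log2(FPKM + 1) values, were Klf10 (0.0872), Tek (0.0876), Slc2a5 (0.119), Eml1 (0.130) and Plvap (0.132). Tek and Plvap are endothelial genes, Klf10 is a transcription factor induced by TGF-beta and Slc2a5 is the fructose transporter. Klf10 stood at 7.65, 6.05 and 6.64 FPKM in the WT libraries and 14.1, 15.8 and 20.0 FPKM in the fat-1 libraries. For Vegfa the closest were Gm6563 (0.0222), Pdzd3 (0.0348), Slc35d1 (0.0380), Clpx (0.0385) and Galnt14 (0.0444), none of which differed between the groups beyond their spread. These are descriptions over 6 libraries.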

How the data were processed

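RNA from 3 WT and 3 fat-1 mouse kidney samples was analysed. The authors deposited FPKM per transcript, 1 table per library, per the file headers. The submitters' processing notes name mm10 and the tools HISAT2 2.0.5, DESeq2 1.20.0 and featureCounts 1.5.0-p3. What made the FPKM is not stated. Each of the 27486 transcripts is protein-coding and reaches 0.5 FPKM in at least 1 library, so sums per gene leave out lower transcripts. Whole reads were not recovered: between 20.0% and 25.1% of low values lay within 0.05 of a whole multiple of the best step, where evenly spread values give 10%. Depth is therefore unknown.

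Values were summed per gene identifier and tested as log2(FPKM + 1) with limma 3.58.1 in R 4.3.3 (intensity trend, robust, no covariates), which was checked on simulated data. Tables were made with Python 3.11.15. Groups came from the genotype label. Members, lists and tests were chosen with earlier results of these data known. Named genes were the 10 members, their receptor kinases, called genes and those of smallest p in each list, abundant markers, and the 5 genes nearest to Cxcl12 and to Vegfa. Alternatives covered scaling, filters, pseudocounts, variance models, the highest transcript in place of the sum, and omitted libraries.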

Additional observations from a re-analysis of the deposited data

How the results depend on the processing

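No paired analysis was possible because the labels give no replicate numbers shared by the groups. Cxcl12 stayed positive in all 19 alternatives, and its call was kept in 9. It was lost with no filter (1.25, adjusted p = 0.0564), with a mean of at least 0.5 FPKM (1.25), with neither trend nor robust fit (1.25), with the highest transcript in place of the sum (1.34), and with WT replicate 1 and fat-1 replicate 3 omitted together (1.24). With each replicate left out in turn its difference lay between 1.17 and 1.35. In these 5 settings 0 of the 10 genes were called; with single replicates left out the number was 0 to 1. Over all genes 21 were called. The number was 33 with equal sums outside mitochondrial genes, 11 with the upper quartile, 8 with median-of-ratios, 34 with quantile normalization, 4 with no filter, 42 at 5 FPKM, 4 at a mean of 0.5 FPKM, 7 with neither trend nor robust fit and 3 with the highest transcript. It was 0 to 26 with a replicate left out and 0 with that pair omitted (1461 genes had an unadjusted p under 0.05). The calls of Egln3 and Plvap were kept in 5 and 4 of 19 alternatives, with differences of 1.17 to 1.37 and 1.12 to 1.32.

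Signs turned in these cases. With a replicate left out, Cxcr4 differed by -0.0854 (WT replicate 2) to 0.594, and by -0.0292 without fat-1 replicate 3. Vegfa differed by 0.0373 and Vegfb by 0.0764 with the highest transcript, and Vegfb by -0.187 to 0.0291 (WT replicate 3) with a replicate left out and 0.0163 with the pair omitted. Vegfc differed by -0.169 (pair omitted) to 0.0362 (fat-1 replicate 2 left out). Angpt1 ranged from -0.146 (fat-1 replicate 2 left out) over 0.0881 (WT replicate 1) and 0.177 (fat-1 replicate 3) to 0.298 (pair omitted). Vegfa-201 ranged from -0.0422 (WT replicate 1 left out) to 0.112. The share of Cxcl12-202 ranged from -1.51 points (fat-1 replicate 1 left out) over -0.455 (WT replicate 3) to 3.28 points. The share of Vegfa-202 lay between -11.4 and -8.17 points whichever replicate was left out. With a filter at 5 FPKM, 5 of the 10 genes were tested. Depth is unknown, so low genes such as Vegfc and Angpt2 have no counting error attached.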
